A study of Drosophila melanogaster with 24 samples.

Results

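The comparison set all 12 trained male flies against all 12 mock males of a courtship suppression experiment, with the training schedule as a block, so that each gene received 1 estimate of the effect of training over both schedules. All 24 libraries of the series entered it, each from the head of 1 virgin Drosophila melanogaster male. In this assay a male that courts a mated, unreceptive female is rejected and later courts less. The 1X trained males spent 1 session of 2 h with such a female, the 3X trained males spent 3 sessions of 2 h with gaps of 30 min, and the 1X mock and 3X mock males were handled on the same schedules without a female. Heads were frozen 1 h after the last session. Each of these 4 groups held 6 flies. The males had been kept singly since eclosion and were trained on day 5, and no strain name was given for these flies in the sources used here. Mock males lacked the female altogether, so trained and mock flies differed in female contact, courtship and its energy cost as well as in learning, and these cannot be told apart. Each fly was a separate animal, and p-values therefore measure the spread between single flies.

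Courtship conditioning acts on brain circuits, but a fly head also holds eyes, glia, muscle, blood cells and the head fat body, an organ that stores fat, makes serum proteins and secretes immune peptides. Opposing hormone systems set whether the fat body stores or releases fuel. Insulin-like peptides restrain the transcription factor foxo and with it fasting genes such as Thor and Pepck1, while adipokinetic hormone acts through its receptor AkhR to release sugar and fat. Immune peptides are switched on through the Imd and Toll pathways. In whole heads, fewer cells of a type and less RNA per cell cannot be told apart.

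The libraries held 18929289 to 41403289 reads as recovered from the deposited RPKM values (read counts scaled by transcript length and by library size), 24683818 to 41403289 in mock and 18929289 to 39464281 in trained flies. The summed RPKM of 8 photoreceptor markers was 25100 to 30250 in mock and 25070 to 29950 in trained flies, and that of 10 neuron markers was 524 to 594 and 495 to 585, so both groups carried the defining markers of a head. Ovary markers summed to at most 3.31 RPKM. Testis markers summed to 130.4 RPKM in 3X mock replicate 6 and to at most 9.74 RPKM in the other 23 flies. That library stood apart, and 1X trained replicate 1 stood apart in immune genes and in others. It held the highest RPKM of all flies for Dgat2 (20.1, others at most 7.28), Arc2 (13.02, at most 5.65) and GstD9 (245, at most 65.5) and the lowest for Pepck1 (32.9, others at least 129), tobi (12.96, at least 48.7) and sxe2 (50.8, at least 113). Without it these genes other than GstD9, which was not called, kept their calls, with log2 changes of 0.62 for Dgat2, 0.26 for Arc2, -0.81 for Pepck1, -1.60 for tobi and -0.42 for sxe2. The counts are also given without both libraries.

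Training changed many transcripts by a little. The common training effect was called, at an adjusted p below 0.05 in limma, for 1158 of the 10547 genes (11.0%), with 713 (6.76%) higher and 445 (4.22%) lower after training. Called changes had a median size of 0.21 on the log2(RPKM + 1) scale, 109 called genes changed by at least 0.5 and 20 by at least 1. Among these 20, 13 were higher and 7 lower, and Pepck1 and CG45087, which share one locus and identical values, are both counted. This scale understates the change of genes with low values.

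The split into directions depended on the scaling between libraries. Without any rescaling of the RPKM, 61.6% of the called genes were higher. With median-ratio scaling 1166 genes were called and 56.7% of them were higher, and with quantile normalization these values were 1189 and 48.9%. The median log2 change over all tested genes was 0.0042, against -0.0010 and -0.0077 in these fits. Leaving out single flies gave 781 to 1437 called genes, and the lower genes numbered 290 without 3X trained replicate 3. Without 3X mock replicate 6, 965 genes passed, and without this library and 1X trained replicate 1, 915 passed, of which 804 were among the 1158.

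**Figure D1:**
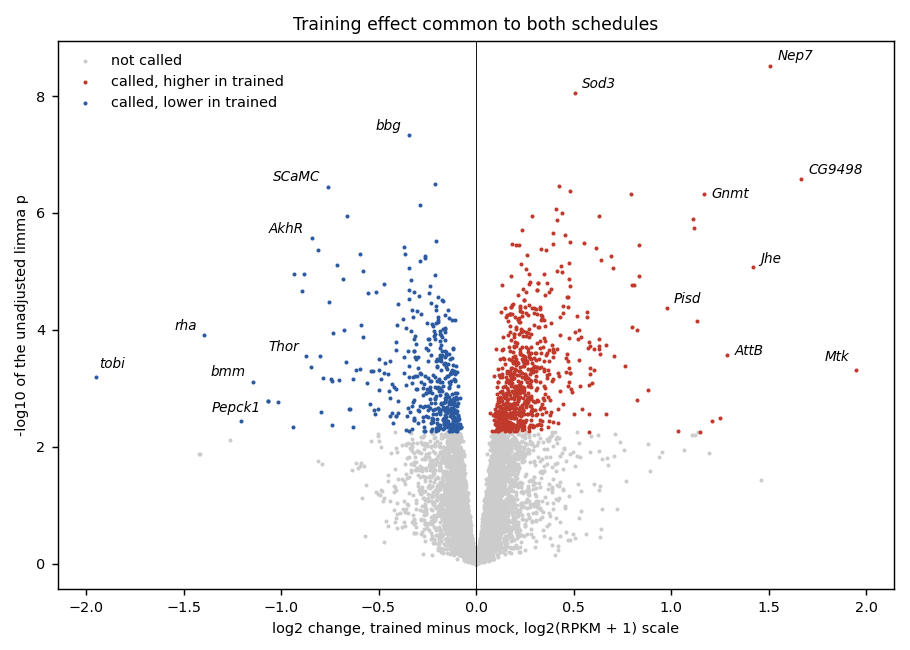
Each point is one of the 10547 tested genes. The horizontal axis gives the log2 change, trained minus mock, on the log2(RPKM + 1) scale, and the vertical axis gives -log10 of the unadjusted limma p. The 713 called higher genes (red) and 445 called lower genes (blue) mostly changed by less than 0.5, Nep7 and Sod3 had the smallest p, and tobi and Mtk had the most extreme changes among called genes.

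Both schedules contributed to the common effect, although in some genes the 3X trained flies did so unevenly. In Pisd, 3X trained replicates 1, 4 and 6 measured 50.7, 65.3 and 70.0 RPKM, inside the 3X mock range of 43.6 to 78.6. Replicates 2, 3 and 5 measured 164, 167 and 135 RPKM. The same flies split in bmm, Pect and Thor, so such genes are not separate results. In Nep7 and Sod3 every 3X trained fly lay above the 3X mock flies. How many genes split this way was not counted. All 1158 genes had the same sign after 1X and after 3X training, which is a description, since the calls rest on the same values. Tested one schedule at a time in a model of 4 group means, 521 genes (4.94%) passed after 1X, 290 higher (2.75%) and 231 lower (2.19%), and 239 (2.27%) after 3X, 157 higher (1.49%) and 82 lower (0.777%). Of the 1158, 26 passed in both single-schedule tests (18 higher, 8 lower), 331 after 1X only, 131 after 3X only and 670 in neither (414 higher, 256 lower). The genes called in neither schedule had a median change of 0.18 in size, against 0.38 for those called in both. Conversely 163 genes called after 1X only, 81 called after 3X only and 1 called in both were not called for the common effect.

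The single-schedule counts moved with single flies, the 3X count most. After 1X the count was 302 to 608 when each fly was left out in turn, lowest without 1X mock replicate 5, and it was also below 347 without 1X mock replicate 4 (324) and 1X trained replicate 3 (345). After 3X it was 26 to 612, lowest without 3X trained replicate 3 and highest without 3X trained replicate 6. It also fell to between 43 and 96 without any single one of 3X mock replicates 1, 2, 3, 4 and 6 and 3X trained replicate 5, and stood at 578 without 1X trained replicate 1 and 417 without 3X trained replicate 1. The common count stayed within 1.5 times 1158 in all 24 of these fits, and 712 of the 1158 genes (449 higher, 263 lower) passed in every one of them.

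A common effect need not be an equal one. Tested against each other, the 3X and 1X effects differed in 18 of the 10547 genes (0.171%), 10 in which the 3X effect was the higher (0.0948%) and 8 in which it was the lower (0.0759%). This count rested on single flies. It was 35 without 1X mock replicate 6, 107 without 1X trained replicate 1 and 106 without 3X trained replicate 2. It fell to between 3 and 11 without any one of 1X mock replicates 1 to 5, 3X mock replicates 2, 3 and 6, 1X trained replicates 2, 4 and 5 and 3X trained replicates 1 and 5. Of those 18 genes, 4 were also called for the common effect, namely su(r), CG9664, CG31810 and out. The pyrimidine-degrading enzyme su(r), dihydropyrimidine dehydrogenase, rose by 1.21 on the log2 scale after 1X, against a change of 0.05 after 3X that did not pass (adjusted p of the difference 0.00144 in limma, common log2 change 0.63). For CG9664 the changes were -1.44 and -0.32 (limma adjusted p of the difference 0.0349). The remaining called genes did not pass, which does not show that their effects were equal.

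The groups of 12 overlapped in almost every gene. Of the 10547 genes, 2 (0.0190%) separated all trained from all mock flies, 1 in each direction (0.00948% each). CG17029, of the inositol monophosphatase family, measured 30.7 to 37.9 RPKM (median 36.1) in mock and 40.3 to 63.9 (median 50.2) in trained flies, a log2 change of 0.48 ± 0.07 (SE, adjusted p in limma 0.000508). The gene bbg, which codes for a PDZ-domain scaffold protein of epithelia, measured 4.54 to 5.99 RPKM (median 4.95) in mock and 3.26 to 4.25 (median 3.78) in trained flies, a log2 change of -0.34 ± 0.04 (SE, adjusted p in limma 0.000165). Within each schedule, 410 genes (3.89%) separated the 6 trained from the 6 mock flies after 1X and 259 (2.46%) after 3X, and 9 (0.0853%) did so in both schedules in the same direction. CG17029 overlaps 1 gene on the other strand and bbg overlaps 7 annotated genes, and the libraries did not keep strand.

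The smallest p belonged to Nep7 (FBgn0039564, dm6 chromosome 3R, 27954917 to 27957326), a member of the neprilysin family of zinc peptidases, which cleave small peptides such as neuropeptides outside cells. The RPKM of Nep7 was 2.71 to 6.75 (median 4.67) in mock and 5.97 to 23.9 (median 15.1) in trained flies. In each schedule all 6 trained flies lay above their 6 mock flies, and 11 of the 12 lay above every mock fly of either schedule. The log2 change was 1.51 ± 0.17 (SE, adjusted p in limma 3.18e-05), made up of 1.56 after 1X and 1.46 after 3X.

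Sod3 (FBgn0033631, chromosome 2R, 11380347 to 11384114), an extracellular superoxide dismutase, showed a smaller and tight shift. Its RPKM was 77.1 to 124 (median 97.9) in mock and 120.0 to 169.6 (median 137) in trained flies. Here too every trained fly exceeded the mock flies of its own schedule. This was a log2 change of 0.51 ± 0.06 (SE, adjusted p in limma 4.74e-05).

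CG9498 (FBgn0031801, chromosome 2L, 6349393 to 6351034) had the highest log2 change of the genes with the smallest p. The values were 16.9 to 58.2 RPKM (median 29.3) in mock and 40.1 to 211 (median 97.4) in trained flies, with 11 of 12 trained flies above every mock fly. The common change was 1.67 ± 0.24 (SE, adjusted p in limma 0.000508), with 2.43 after 1X and 0.90 after 3X. The difference between the schedules missed the threshold (limma adjusted p 0.0771).

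The other genes among the 12 higher ones with the smallest p were CG9436 (log2 change 0.43), CG16743 (0.79), Rim2 (0.41), CG15445 (0.29), CG43630 (1.11), and Gnmt, PGRP-LB and LanB2, described with their groups. Rim2 codes for a mitochondrial carrier of pyrimidine nucleotides. LanB2, the gamma chain of laminin in basement membranes, measured 2.11 to 3.55 RPKM (median 3.03) in mock and 3.47 to 6.86 (median 5.33) in trained flies, a log2 change of 0.63 ± 0.10 (SE, adjusted p in limma 0.000751). For LanB2, 10 of the 12 trained flies lay above every mock fly. Markers of blood cells, which make basement membrane, summed to 108 to 194 RPKM (median 157) in mock and 142 to 221 (median 184) in trained flies, and their part in this result was not tested.

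**Figure D2:**
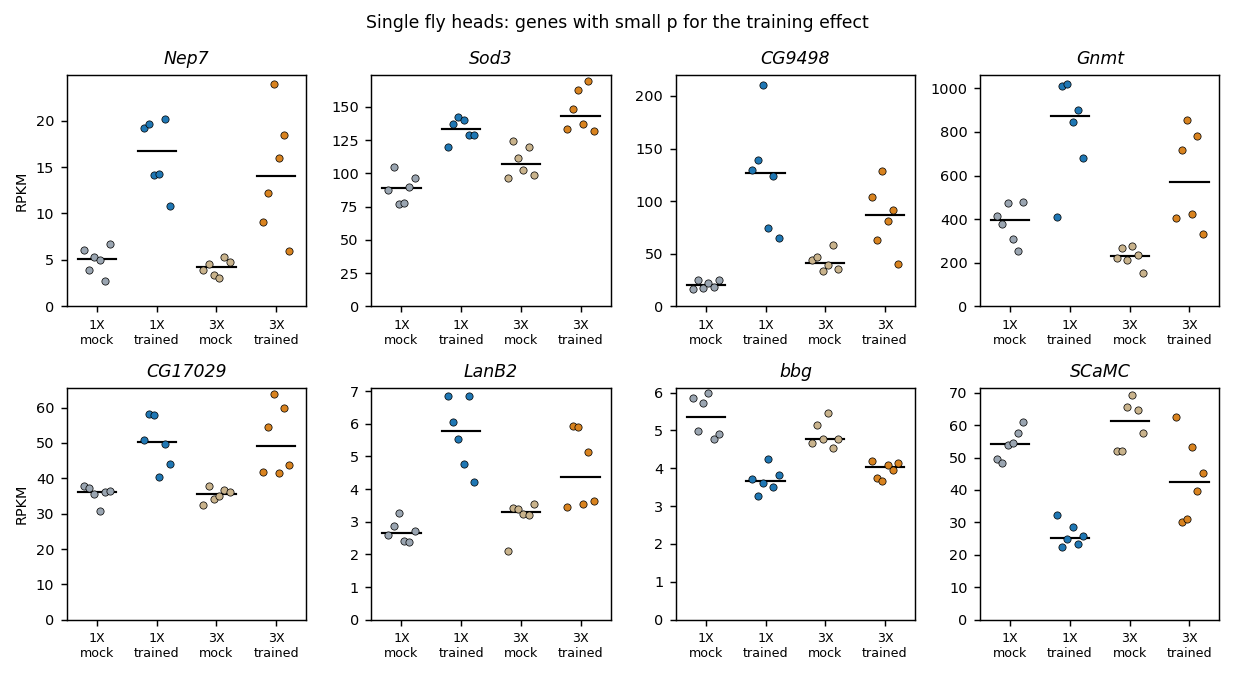
RPKM of 8 genes in each of the 24 flies, by group (1X mock, 1X trained, 3X mock, 3X trained, 6 flies each), on linear axes that start at 0. Points are single flies and bars are group medians. CG17029 and bbg separate all trained from all mock flies, while in Nep7, Sod3 and CG9498 1 trained fly lies within the mock range.

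Among the 12 lower genes with the smallest p, AkhR, lncRNA:CR43417 and SCaMC had the most negative changes. SCaMC codes for a calcium-regulated carrier of ATP and phosphate in the inner mitochondrial membrane. Its RPKM was 48.4 to 69.2 (median 56.0) in mock and 22.5 to 62.4 (median 30.6) in trained flies, a log2 change of -0.76 ± 0.11 (SE, adjusted p in limma 0.000508). The 10 lowest trained flies lay below every mock fly, while the other 2 fell inside the mock range.

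The long non-coding RNA lncRNA:CR43417 fell by 0.81 on the log2 scale, the carboxylesterase gene alpha-Est2 by 0.66, CG3270 by 0.59 and SmydA-2 by 0.37. Paip2, whose protein binds poly(A)-binding protein and represses translation, fell by 0.36, and Mekk1, a stress-activated kinase upstream of p38 signalling, by 0.29. The kinesin-like gene neb fell by 0.26, Samuel by 0.21 and CG18766 by 0.20. The limma adjusted p of these 9 genes was 0.000508 to 0.0014, and each had at least 9 of 12 trained flies below every mock fly. AkhR, the twelfth gene, is described with the fuel genes.

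**Figure D3:**
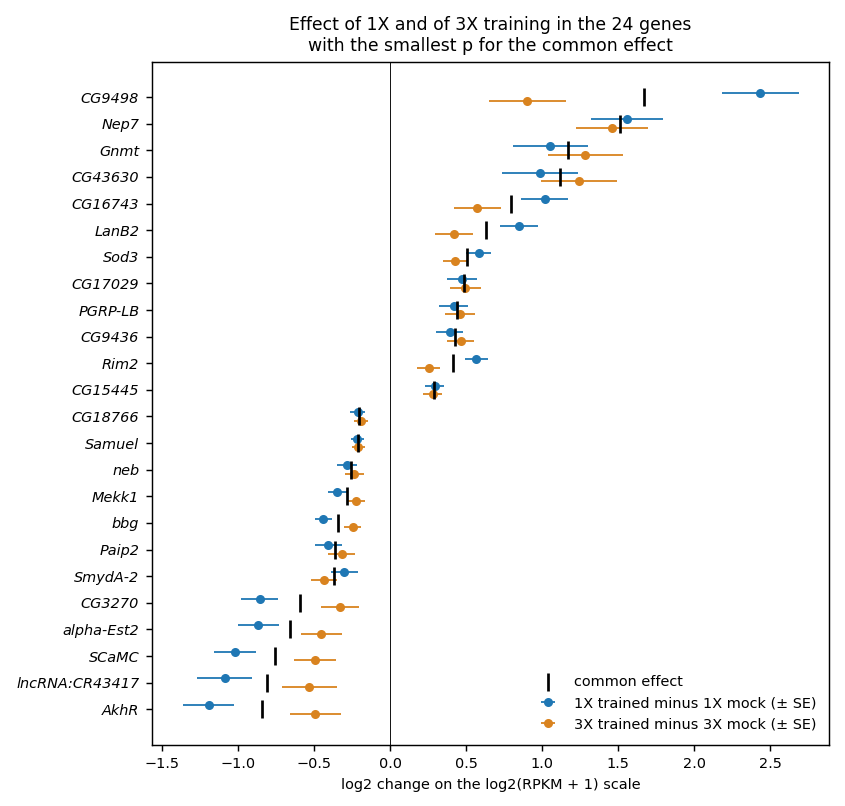
Log2 change of the 12 higher and 12 lower genes with the smallest p, after 1X training (blue) and after 3X training (orange), with standard errors, and the common effect (black tick). All 24 genes have the same sign in both schedules, and the 1X and 3X changes are farthest apart in CG9498 (2.43 and 0.90).

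Genes that passed for the common effect but in neither schedule alone included Mtk, tobi and bmm, described with their groups. Among the higher ones with the smallest p were eIF6, which takes part in the assembly of the large ribosomal subunit (log2 change 0.45, 0.42 after 1X and 0.47 after 3X), MED30, a subunit of the Mediator complex (0.29), CG17734 (0.23) and CG17746 (0.13). Their limma adjusted p was 0.00381 to 0.00407. The lower ones were olf186-M (-0.59), the lysosomal mannosidase gene LManII (-0.41), CG9896 (-0.22) and twi (-0.21), with adjusted p of 0.00477 to 0.00565. CG9896 lies within twi on the other strand, and the reads of the pair could not be told apart.

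Some fuel genes under insulin and adipokinetic hormone fell in trained flies. The gene lists here and below were written with earlier results of these data known. A list's share of calls is therefore a description and not a test. Of 20 tested insulin and fasting genes, 7 were called lower and 1 higher, 40.0% against 11.0% of all genes. The other 12 did not pass, so that the median log2 change of the list was -0.04 against 0.0042 for all genes. Tested by schedule, 4 of the 20 passed after 1X and none after 3X. The lower members were foxo, Thor, tobi, Pepck1, Pepck2, Pdk1 and Akt, and the higher one was srl. The insulin-like peptide genes of the brain did not pass, with log2 changes of -0.02 for Ilp2, -0.03 for Ilp3 and -0.21 for Ilp5 (limma adjusted p 0.904, 0.833 and 0.382).

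AkhR (FBgn0025595, chromosome 2L, 6711286 to 6716186) codes for the receptor of adipokinetic hormone. Its RPKM was 27.5 to 41.9 (median 34.4) in mock and 9.80 to 35.0 (median 17.5) in trained flies. All 6 of the 1X trained flies and 4 of the 6 3X trained flies lay below every mock fly of their schedule. The log2 change was -0.84 ± 0.14 (SE, adjusted p in limma 0.0012), with -1.20 after 1X and -0.49 after 3X, and the difference between them missed the threshold (limma adjusted p 0.228).

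The lipase gene bmm, whose product releases fatty acids from stored fat, spread widely. The values of bmm were 27.4 to 76.1 RPKM (median 55.0) in mock and 10.5 to 76.8 (median 19.5) in trained flies. Of the trained flies 7 lay below every mock fly, while 3X trained replicate 6 lay above all of them. Its common change was -1.14 ± 0.30 (SE, adjusted p in limma 0.016).

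The alpha-glucosidase gene tobi (FBgn0261575, chromosome 3R, 25344761 to 25346921), a known target of insulin and adipokinetic hormone signalling, had the most negative change of all called genes. Its RPKM was 344 to 1410.4 (median 562) in mock and 12.96 to 950.4 (median 185) in trained flies. Of the 12 trained flies 9 lay below every mock fly, and the other 3 lay inside the mock range. The log2 change was -1.95 ± 0.50 (SE, adjusted p in limma 0.0145), and the neighbouring rha, which overlaps tobi on the other strand, had -1.40 ± 0.31 (SE, adjusted p 0.00622).

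The transcription factor gene foxo measured 17.8 to 22.9 RPKM (median 21.1) in mock and 12.8 to 21.6 (median 16.6) in trained flies, a log2 change of -0.34 ± 0.06 (SE, adjusted p in limma 0.00231). Its target Thor, a repressor of translation, measured 179 to 344 RPKM (median 254) in mock and 71.7 to 317 (median 112) in trained flies, a change of -0.87 ± 0.20 (SE, adjusted p 0.00979). In foxo 8 and in Thor 7 of the 12 trained flies lay below every mock fly.

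Both genes for phosphoenolpyruvate carboxykinase, the enzyme that commits carbon to glucose synthesis, were lower. Pepck1 measured 443 to 717 RPKM (median 575) in mock and 32.9 to 629 (median 268) in trained flies, a log2 change of -1.07 ± 0.30 (SE, adjusted p in limma 0.0255). Its fall lay mainly in the 1X flies, with -1.79 after 1X and -0.34 after 3X, although this difference missed the threshold (adjusted p 0.263). Pepck2 had a change of -0.76, and the kinase genes Pdk1 and Akt had -0.18 and -0.15. The one higher member was srl, the fly homologue of the mitochondrial regulator PGC-1 (0.40, adjusted p 0.00892).

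Lipid genes moved both ways. Of 16 tested lipid storage and lipoprotein genes 4 were called lower and 3 higher, 43.8% of the list against 11.0% of all genes. The median log2 change was -0.01. Tested by schedule, 3 of the 16 passed after 1X and none after 3X. Besides AkhR and bmm, the lower ones were whd, the carnitine palmitoyltransferase that brings fatty acids into mitochondria (-0.56, limma adjusted p 0.0167), and apolpp, the main lipoprotein of the blood (-0.21, adjusted p 0.0227). The higher ones take part in fat synthesis and export: Dgat2, which makes triglycerides (0.76, adjusted p 0.0119), Apoltp, the lipid transfer particle (0.48, adjusted p 0.00225), and Mtp, which loads lipoproteins (0.35, adjusted p 0.018). None of 8 fatty acid synthesis genes passed.

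The summed RPKM of the 7 fat body markers in the table was 3493 to 10170 (median 6647) in mock and 624.7 to 8458 (median 3870) in trained flies, and the groups overlapped. Most of this sum was Lsp2, a storage protein, whose own log2 change was -1.42 (limma adjusted p 0.0847). Of the 5 markers tested, apolpp alone was called, and fit and to, with changes of -0.23 and 0.09, were not (adjusted p 0.587 and 0.906). Muscle markers summed to 202 to 323 RPKM in mock and 170 to 264 in trained flies. The part of these shifts in the changes of the fuel genes was not tested.

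**Figure D4:**
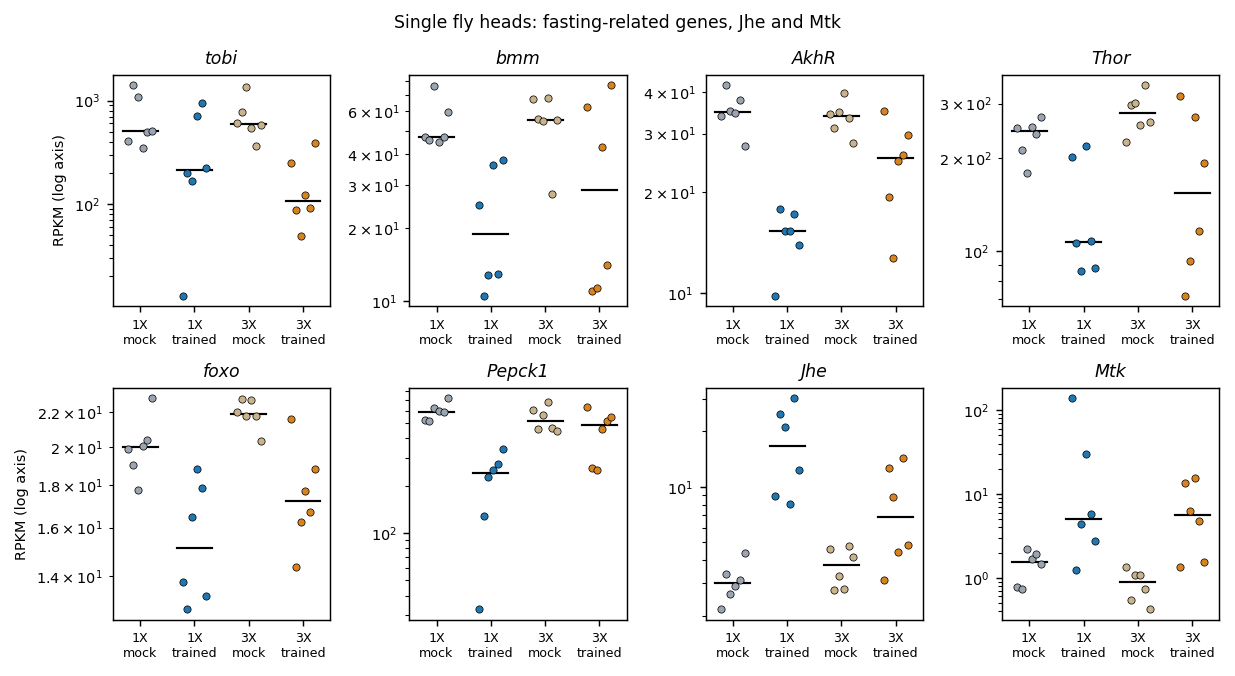
RPKM of 8 genes in each of the 24 flies by group, on log axes. Points are single flies and bars are group medians. The trained flies of bmm ran from 10.5 to 76.8 and those of Mtk from 1.24 to 139 RPKM, against 27.4 to 76.1 and 0.423 to 2.24 in the mock flies.

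Some genes of methyl-group and sulfur metabolism rose. Of 16 tested one-carbon, transsulfuration and glutathione genes, 5 were called higher and none lower, 31.3% against 11.0% of all genes, and the median log2 change was 0.25. The 5 form a chain that makes, uses and recycles the methyl donor S-adenosylmethionine and passes its sulfur to cysteine. With both libraries that stood apart left out, 4 of the 5 passed.

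Gnmt (FBgn0038074, chromosome 3R, 12674608 to 12676084) codes for glycine N-methyltransferase, which spends S-adenosylmethionine to methylate glycine. Its RPKM was 154 to 477 (median 273) in mock and 333 to 1019.8 (median 749) in trained flies, and 8 trained flies lay above every mock fly. The log2 change was 1.17 ± 0.17 (SE, adjusted p in limma 0.000508), with 1.05 after 1X and 1.28 after 3X. CG43630, with a change of 1.11, overlaps Gnmt on the other strand, and its values cannot be told apart from reads of Gnmt.

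Sam-S, which makes S-adenosylmethionine, measured 114 to 191 RPKM (median 169) in mock and 118 to 354 (median 246) in trained flies, with 11 of 12 trained flies above every mock fly and a log2 change of 0.58 ± 0.13 (SE, adjusted p in limma 0.00797). Ahcy, which clears the product of methylation, had a change of 0.49 (adjusted p 0.0204). Cbs and Cth, the enzymes that turn homocysteine into cysteine, had 0.38 and 0.32 (adjusted p 0.0103 and 0.0257). Ahcy and Cth had changes of 0.16 and 0.02 after 1X and 0.82 and 0.61 after 3X, and the difference missed the threshold in both (adjusted p 0.246 and 0.0771). Gclm, a subunit of the enzyme that begins glutathione synthesis, had a change of 0.50 that did not pass (adjusted p 0.0795).

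Of 20 purine and pyrimidine genes, 5 were called higher and none lower, 25.0% of the list against 11.0% of all genes, with a median of 0.07. They were the purine synthesis genes Prat2 (0.60), Pfas (0.47) and Adss (0.19), the CTP synthase gene Ctps (0.17) and su(r). Their limma adjusted p was 0.00306 to 0.0219. The neighbouring steps Prat, Paics and Gart had changes of 0.14, 0.15 and -0.08 and did not pass (adjusted p 0.153, 0.155 and 0.64).

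Enzymes that conjugate glutathione to foreign compounds were more often higher than lower. Of 31 glutathione S-transferase genes tested, 6 were called higher and 1 lower, 22.6% of the list against 11.0% of all genes, with a median of 0.03. GstD2 rose by 0.57, GstE3 by 0.53, GstE8 by 0.44 and GstD1, the most abundant of these, by 0.31, from a median of 675 to 843 RPKM. GstZ2 fell by 0.25. Of 72 cytochrome P450 genes 2 were called higher and 6 lower, 11.1% against 11.0% of all genes, with changes of -0.59 for Cyp6g1, -0.58 for Cyp18a1, -0.27 for Cyp12a4 and 0.37 for Cyp6v1.

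**Figure D5:**
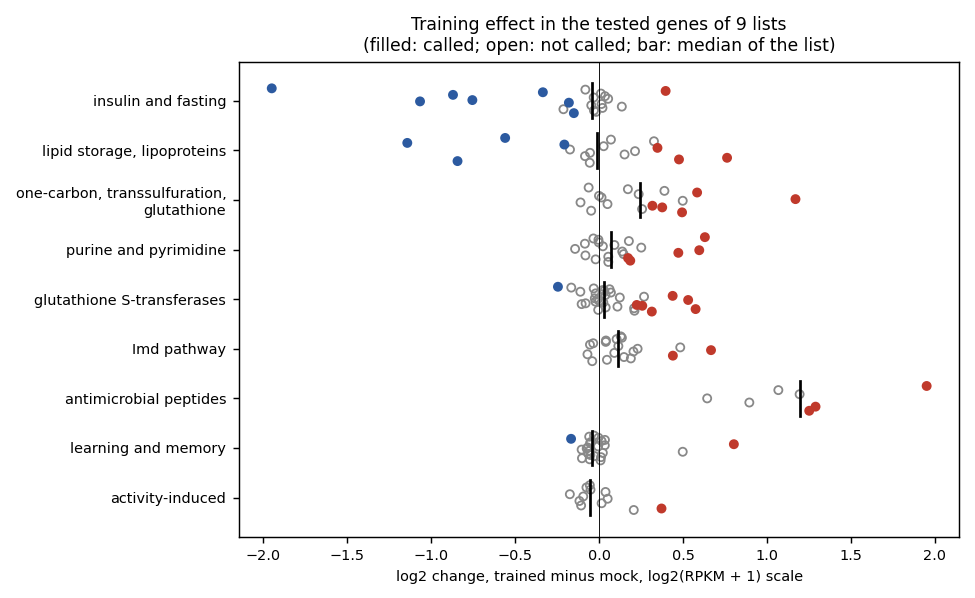
Log2 change of each tested gene of 9 lists, with called genes filled (red higher, blue lower), other genes open, and a bar at the median of each list. The one-carbon list has its median at 0.25, and the insulin and lipid lists have medians of -0.04 and -0.01 with called members on both sides. The antimicrobial peptides, of which 7 of the 13 matched genes passed the filter, have a median of 1.19. A gene could pass this filter through trained flies alone, and without the filter the median over all 13 is 0.89.

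Antimicrobial peptide genes code for small secreted peptides that kill microbes. The study singled this group out from its own sequencing, which includes these libraries, so the direction here is not independent evidence. Of 14 listed genes 13 were matched to a measured gene, and 7 of these passed the filter on low values. A gene could pass this filter through trained flies alone, so no count over these 7 is read as support. AttA, DptB and Dro reached 1 RPKM in too few mock flies to pass on these alone. Of the 7, 3 were called higher and none lower, 42.9% against 11.0% of all genes.

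Mtk (FBgn0014865, chromosome 2R, 15408846 to 15409113), the gene of Metchnikowin, measured 0.423 to 2.24 RPKM (median 1.08) in mock and 1.24 to 139 (median 5.29) in trained flies, on 4 to 1272 reads per fly. Its log2 change of 1.95 ± 0.48 was the highest of all called genes (SE, adjusted p in limma 0.0129), and 9 of 12 trained flies lay above every mock fly. With voom on the recovered reads its adjusted p was 0.0542.

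AttB (FBgn0041581, chromosome 2R, 14749223 to 14750165), one of the Attacins that act on Gram-negative bacteria, measured 0.789 to 2.09 RPKM (median 1.27) in mock and 1.86 to 30.6 (median 3.02) in trained flies, a log2 change of 1.29 ± 0.30 (SE, adjusted p in limma 0.00958). The similar, adjacent AttA measured 0.253 to 1.80 RPKM (median 0.762) and 0.630 to 23.4 (median 2.19), a change of 1.25 ± 0.38 (SE, adjusted p 0.0366), and reads may be shared between the pair. The AttA call was lost when any one of 1X mock replicates 3 and 4, 3X mock replicates 1, 2, 4, 5 and 6, 1X trained replicates 1 and 5 and 3X trained replicate 2 was left out, with an adjusted p of up to 0.0587.

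The other 4 tested peptide genes did not pass. DptB measured 0.127 to 1.71 RPKM (median 0.715) in mock and 0.187 to 37.4 (median 1.75) in trained flies, a log2 change of 1.19 ± 0.44 (SE, adjusted p in limma 0.0825), and 6 of 12 trained flies lay above every mock fly. Dro, AttC and Def had changes of 1.07, 0.89 and 0.64 (adjusted p 0.0773, 0.122 and 0.473). Below the filter, DptA reached 0.831 RPKM in mock and 10.5 in trained flies, CecC 1.10 and 6.65, CecA2 0.641 and 4.00, CecA1 0.252 and 1.90, AttD 0.780 and 0.957 and CecB 0.231 and 0.412, with medians of at most 0.578 RPKM in either group.

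Of 19 Imd pathway genes 2 were called higher and none lower, 10.5% of the list, close to the 11.0% of all genes, with a median of 0.11. PGRP-LB, an enzyme that degrades peptidoglycan and thereby dampens Imd signalling, measured 4.58 to 7.13 RPKM (median 6.37) in mock and 6.57 to 11.0 (median 8.46) in trained flies. Of the 12 trained flies 11 lay above every mock fly. Its log2 change was 0.44 ± 0.07 (SE, adjusted p in limma 0.000751), with 0.42 after 1X and 0.46 after 3X.

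PGRP-SB1, a second peptidoglycan amidase, had a change of 0.67 ± 0.20 (SE, adjusted p in limma 0.0337). Its call was lost without any one of 1X mock replicates 3, 5 and 6, 1X trained replicates 4 and 5 and 3X trained replicate 2 (adjusted p up to 0.0602). The NF-kB factor Rel and the adaptor imd had changes of 0.11 and 0.10 and did not pass (adjusted p 0.594 and 0.17).

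Of 17 Toll pathway genes 1 was called higher and 2 lower, 17.6% against 11.0% of all genes. The serine protease gene modSP fell by 0.22 (limma adjusted p 0.00511), while Myd88 (0.18) and SPE (-0.26) kept their calls in 17 and 13 of the 24 fits without 1 fly. In the JAK-STAT and Tep list, 2 of 10 were called lower and none higher (20%). Stat92E, the transcription factor of the JAK-STAT pathway, measured 81.7 to 99.1 RPKM (median 89.1) in mock and 40.0 to 92.1 (median 58.1) in trained flies, a log2 change of -0.58 ± 0.10 (SE, adjusted p 0.00192), and Tep2, a complement-like secreted protein, fell by 0.35 (adjusted p 0.0146). Of 14 Bomanin and Daisho genes, which are Toll targets, 2 were called lower (14.3%).

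Genes of learning, neuronal activity and neuropeptide signalling passed no more often than genes at large. Of 24 learning and memory genes 1 was called higher and 1 lower, 8.33%, with a median of -0.04. Tig, an extracellular ligand of integrins, measured 1.59 to 4.14 RPKM (median 2.70) in mock and 2.95 to 11.2 (median 4.72) in trained flies, a log2 change of 0.80 ± 0.17 (SE, adjusted p in limma 0.00525), with 0.78 after 1X and 0.82 after 3X. The study itself had picked Tig out of its sequencing, so this is not independent evidence. The gene orb2, whose protein binds mRNA at synapses and is needed for long-term courtship memory, fell by 0.17 ± 0.04 (SE, adjusted p 0.00546), from a median of 14.4 to 12.8 RPKM.

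Of 12 activity-induced genes Arc2 alone was called, 8.33% against 11.0% of all genes. Its change of 0.37 (limma adjusted p 0.0449) passed in 8 of the 24 fits that left out 1 fly. Of 32 neuropeptide genes 1 was called higher (Proc, 0.18) and 1 lower (FMRFa, -0.22, in 15 of the 24 fits), 6.25% of the list. Among 9 clock genes tim (-0.34) and Clk (-0.22) were called lower, in 18 and 14 of these fits. They made up 22.2% of this list, against 11.0% of all genes. The clock gene per measured 4.44 to 7.71 RPKM in 1X mock and 15.4 to 20.6 RPKM in 3X mock flies. In tim and vri too, every 3X mock fly lay above every 1X mock fly, and in Clk below. Within 1X mock, replicates 1 and 6 were highest in tim (21.8 and 18.5 RPKM, others at most 13.2). The same flies were highest in per and vri. The part of the time of day at freezing in these calls was not tested.

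The neprilysin family did not move as a whole. Of 25 tested members 2 were called higher (Nep7 and Nep6, 0.39) and 3 lower (Nepl12, -0.45, Nepl5, -0.32, and Nepl6, -0.27). This was 20% of the list against 11.0% of all genes, with a median of -0.03. After quantile normalization 6 members were called lower.

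Several other gene groups gave a share of calls below the 11.0% of all genes. Of 81 cytosolic ribosomal protein genes 8 were called higher and none lower, 9.88%, with a median of 0.07, and 77 of the 81 changes were above 0. None of 68 respiratory chain genes, 34 proteasome genes or 20 cuticle genes passed, and of 24 chaperone genes 1 passed. Among 27 phototransduction genes ninaA and ninaG were called lower, by 0.16 each (7.41% of the list). The head fat body and sex-dependent list, with a share above that of all genes, had 2 of 15 genes called lower, sxe2 (-0.54) and the sex determination gene dsx (-0.33).

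Jhe, the esterase that breaks down juvenile hormone, was among the 5 called genes with the largest change. Its RPKM was 2.17 to 4.79 (median 3.21) in mock and 3.12 to 30.3 (median 10.7) in trained flies. All 6 of the 1X trained and 4 of the 6 3X trained flies lay above every mock fly of their schedule. For Jhe the log2 change was 1.42 ± 0.25 (SE, adjusted p in limma 0.00181), with 2.05 after 1X and 0.79 after 3X, and the difference between the schedules missed the threshold (adjusted p 0.238). CG11741, among the 5 called genes with the most negative change, had -1.20 ± 0.37 (SE, adjusted p 0.0396) and passed in 8 of the 24 fits that left out 1 fly.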

How the data were processed

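Poly(A) RNA of 24 single male heads was made into non-stranded SMART-Seq v4 libraries. The authors deposited RPKM values per gene and fly. Per the labels, reads were processed with bcl2fastq 2.18, TopHat2 2.0.13 and edgeR 3.18.1 on dm6, while another section of the study's methods names an older TopHat and dm3. Reads were recovered from the RPKM values with exonic lengths from Ensembl 115 (tolerance 0.02 reads), for 16284 genes with the annotated and for 708 with a fitted length. They cover counting error only.

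Genes with RPKM of at least 1 in at least 6 of 24 flies were tested on log2(RPKM + 1) with limma 3.58.1 in R 4.3.3 (lmFit, eBayes with trend), with schedule and training as terms. Single-schedule effects and their difference came from a model of 4 group means on all flies. Tests were two-sided with Benjamini-Hochberg adjustment over all 10547 genes. The code was tested on simulated data.

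Named were the 12 higher and 12 lower called genes with the smallest p, the 4 of each direction called in neither schedule, the 5 largest and 5 most negative changes, the antimicrobial peptide genes, and called members of 27 gene lists and 9 marker lists (up to 4 per list). Other members appear where a list is described, and were chosen after their values were seen. The members and lists were chosen with earlier results of these data known. Replicate numbers were given in the labels for each group. Same-numbered trained and mock flies of a schedule had correlations of their deviations from -0.237 to 0.065, so the numbers did not pair the flies. Alternatives changed the pseudocount (0.1, 5), filter, scaling, model, weights, test and flies. Coordinates are Ensembl 115 on dm6. No sequences were used here.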

Additional observations from a re-analysis of the deposited data

Results flagged for a closer look

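In 100 groups of 6 flies the gap between the extreme fly and its nearest neighbour was divided by the whole range. In 9 groups the share exceeded 0.625, which independent, normally spread values exceed in about 1 in 20, or 5. Gene values were RPKM without a log, and the groups share flies, so the 9 cannot be held against that 5.

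Immune genes of 1X trained replicate 1 gave 4 of the 9. The shares were 0.9 for AttB, 0.835 for DptB, 0.788 for Mtk and 0.629 for PGRP-LB among the 1X trained flies. In this fly Mtk stood at 139 RPKM and AttB at 11.3 RPKM, against at most 30.4 and 2.81 RPKM in the other 1X trained flies. Its 50 most abundant genes held 21.8% of the reads, the lowest share of all flies. Without it 1060 genes were called for the common effect, and Mtk, AttB and PGRP-LB still passed.

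Other single flies stood apart in LanB2 (3X mock replicate 1, share 0.753), bmm (3X mock replicate 5, 0.672, at 27.4 RPKM) and CG17029 (1X mock replicate 4, 0.657). The library of 1X trained replicate 4 held 18929289 reads, the fewest, with a share of 0.664. The testis marker sum of 3X mock replicate 6 had a share of 0.973. Its 130.4 RPKM stood against at most 9.74 RPKM in the other 3X mock flies.

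The effect of training differed between the schedules in su(r), with a limma adjusted p of 0.00144 for the difference, although su(r) was called for the common effect.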

How the results depend on the processing

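None of the 124 called named genes reversed its direction under the alternatives run, while uncalled genes near 0, such as imd and Ilp2, changed sign in the 1X flies alone. With the RPKM as deposited 1158 genes were called, and 818 to 1388 under the alternatives that kept all 24 flies, apart from the replicate block within schedule (798). Fitted on the 1X flies alone, 467 genes passed (260 higher, 207 lower), and on the 3X flies alone 54 passed (37 higher, 17 lower). These fits hold 12 flies each. The replicate numbers did not pair the flies: 1 of 12 mock flies correlated best, among the trained flies of its schedule, with the one of its own number. The replicate block gave 1031 calls, and the block within schedule gave 798, with 532 higher and 266 lower genes. Without the schedule term 850 genes passed. Leaving out each fly in turn gave 781 to 1437 calls, 491 to 867 higher and 290 to 570 lower.

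The counts for single schedules were rerun, and 3X mock replicate 6 and 1X trained replicate 1 were left out together (915 calls), after seeing the data. After 1X they were 345 without a filter and 894 with sample weights, and 302 to 608 with single flies left out. After 3X they were 109, 382 and 26 to 612, and for the difference 9, 120 and 3 to 107. The cause was not tested.

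Of 124 called named genes, 24 lost their call with the replicate block within schedule, 20 without a filter, 17 without the schedule term, 16 without 3X mock replicate 6 and 1X trained replicate 1, 2 with a pseudocount of 5 (AttA and Arc2), 3 with voom on recovered reads (Mtk, AttA and Arc2), and 1 to 19 when 1 fly was left out, most without 3X trained replicate 3. In the fits on 12 flies more were lost: 112 of the 124 in the 3X flies alone and 61 in the 1X flies alone. Genes with few reads, such as Mtk with 4 in its lowest fly, were measured with least precision.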

Other observations

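Several genes of ribosome assembly in the nucleolus were called higher, where 6.76% of all genes were. The lists behind this paragraph were chosen after the values were seen, so no test is given for them. The box H/ACA proteins guide the conversion of uridine to pseudouridine in ribosomal RNA, and all 4 were called higher: Nop10 (log2 change 0.70, limma adjusted p 0.00184), Nop60B (0.58), Gar1 (0.57) and NHP2 (0.57). Of the box C/D proteins, which guide ribose methylation, the 3 matched genes nop5 (0.63), Fib (0.49) and Nop56 (0.48) were called higher. Nop10 measured 11.0 to 19.3 RPKM (median 13.9) in mock and 14.6 to 39.7 (median 22.8) in trained flies, and 9 of the trained flies lay above every mock fly. Of 7 RNA polymerase I subunits 4 were called higher, Polr1H by 0.46 and Polr1C by 0.27 among them, and Polr1F and Polr1B in 19 and 6 of the 24 fits that left out 1 fly. Of 71 mitochondrial ribosomal protein genes 5 were called higher and none lower, 7.04% of the list. Nop10, Nop60B, Gar1, Polr1H and Polr1C overlap genes on the other strand.

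Of 4 genes of phosphatidylethanolamine synthesis, a list also chosen after the values were seen, 2 were called higher, 50% against 11.0% of all genes. Pisd, the mitochondrial phosphatidylserine decarboxylase, measured 32.8 to 85.5 RPKM (median 63.4) in mock and 50.7 to 167 (median 138) in trained flies, a log2 change of 0.98 ± 0.20 (SE, adjusted p in limma 0.00381). Pect, an enzyme of the parallel route, had a change of 0.47 (adjusted p 0.00166). The other 2 genes, eas and bbc, had -0.03 and -0.01 (adjusted p 0.803 and 0.92).

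Among 9 juvenile hormone genes Jhe was called higher and Kr-h1, a transcription factor induced by juvenile hormone, was called lower. They made up 22.2% of this list, also chosen after the values were seen, against 11.0% of all genes. Kr-h1 measured 9.78 to 16.7 RPKM (median 13.6) in mock and 4.98 to 15.0 (median 7.48) in trained flies, a log2 change of -0.68 ± 0.13 (SE, adjusted p in limma 0.00225), with -0.72 after 1X and -0.64 after 3X, and 10 trained flies lay below every mock fly. The receptor gene Met had a change of 0.00 (adjusted p 0.956). Of 5 laminin and collagen IV genes LanB2 alone was called (20% of the list), and LanA and LanB1 had changes of 0.12 and 0.03.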
